A study of Homo sapiens with 12 samples.

Results

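HLF is an established human hepatocellular carcinoma line. RNA of HLF cells placed into a basement membrane gel by injection (Inject-Embed) was compared with RNA of the same line grown flat on plastic (2D), which takes 4 of the study's 12 libraries, chosen by the line and culture in their labels, with 2 replicates of each culture. The HLF 2D cells were harvested after 2 days at about 90% confluence. For Inject-Embed, 2000 HLF cells per well were injected into the centre of Matrigel diluted to 50% and were harvested after 6 to 8 days. All of these cultures received medium with 10% serum, and the labels name no edited gene and no drug. Density, days in culture and the gel differ together between the 2 cultures, so their effects cannot be told apart. The other 8 libraries are HLF cells mixed into the gel (Mix-Embed, 10000 cells per well, 6 to 8 days) and Huh7, a second hepatocellular carcinoma line, in 2D, Inject-Embed (4000 cells per well) and Mix-Embed. They enter the low-count filter, the shared estimate of spread and the tests of whether HLF Inject-Embed differed from them. The labels number the replicates but do not say whether they came from separate cultures, so the p-values measure the spread between these libraries, which may be technical.

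A cell on stiff plastic spreads, builds actin stress fibres anchored at focal adhesions, and holds the coactivators YAP and TAZ in the nucleus, where they act with TEAD factors. A soft gel of laminin and collagen IV surrounds the cell on all sides and is sensed through integrins. Cells that grow as compact bodies in a gel also receive oxygen, nutrients and secreted factors only by diffusion, and hypoxia, sterol, amino acid and interferon responses are each read out by well known sets of target genes.

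Each library held between 12325877 and 16041906 counts, and HLF had 15556397 and 15262526 counts in 2D and 14402603 and 14908163 in Inject-Embed. Mitochondrial ribosomal RNA took 0.3% and 0.293% of the counts in HLF 2D against 0.477% and 0.468% in HLF Inject-Embed, and this share moved with the culture; its part in the results was not tested. Markers of the line were checked first. The mesenchymal markers VIM and CDH2, vimentin and N-cadherin, stood at 708 and 674 CPM (TMM-scaled counts relative to library size) and 241 and 246 CPM in the HLF 2D libraries, whereas CDH1 (E-cadherin) stood at 3.04 and 3.59 CPM. Whole lists did not follow these genes. The 22 mesenchymal genes summed to 3219 CPM in HLF 2D and to between 5185 and 5426 CPM in Huh7 2D. The 33 epithelial junction and keratin genes summed to between 5956 and 6126 CPM in HLF 2D and to between 2560 and 2613 CPM in Huh7 2D. The 28 secreted hepatocyte proteins summed to between 206.2 and 212.6 CPM in HLF 2D and to between 51.67 and 57.38 CPM in HLF Inject-Embed, with APOA2, APOB, TTR, F9, FABP1 and ITIH1 at 0 in all 4 libraries, and in Huh7 2D the same list summed to at least 56900 CPM. The fibrinogen chains FGB and FGG, given below, made up most of the HLF 2D sum. Of the 27 members tested 5 rose (18.5%, against 9.09% of all genes tested) and 3 fell (11.1%, against 8.86%). Of 13 leukocyte markers, PTPRC, CD3E, MS4A1 and CD163 were among those at 0 in all 4 libraries, and the sum of the list was between 3.59 and 4.34 CPM in 2D and between 4.88 and 6.02 CPM in Inject-Embed. The 12 endothelial markers summed to between 4.08 and 4.53 CPM in 2D and to between 4.38 and 4.47 CPM in Inject-Embed, with LYVE1 and CLEC4G at 0. The 12 stellate cell and fibroblast markers, which include RELN and COL1A1, summed to between 405.8 and 408.3 CPM in 2D and to between 601.7 and 602.2 CPM in Inject-Embed, with DPT at 0. Of its 9 members tested 4 rose and 3 fell (2 rose without HLF 2D replicate 2, and 1 fell without any 1 of the 4 libraries), and RELN was at 57.9 and 63.2 CPM in 2D and 262 and 257 CPM in Inject-Embed. As shares of the stellate cell and fibroblast markers tested, 44.4% rose and 33.3% fell, against 9.09% and 8.86% of all genes tested. COL1A1 was among those that fell, with a log2 fold change of -0.549. The 10 cholangiocyte markers, which include SOX9, summed to between 140.9 and 141.3 CPM and between 192.6 and 199.1 CPM, with TFF1 and TFF3 at 0. The part of either list in the results was not tested. In bulk RNA a change in the cells that express a gene and a change of its RNA per cell cannot be told apart.

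The culture changed a broad set of genes by moderate amounts. Of 19342 genes tested, of which 552 passed the filter through the other libraries and had 0 counts in all 4 of these, 3471 were called at an adjusted p under 0.05 with edgeR's quasi-likelihood test and Benjamini-Hochberg adjustment, which is 17.9% of them. In Inject-Embed 1758 genes (9.09%) were higher and 1713 (8.86%) were lower, and with scaling to library totals alone the same test gave 2163 higher and 1252 lower. The median size of a called change was 0.40 on the log2 scale. At least a 2-fold change was reached by 412 higher genes (2.13%) and 187 lower genes (0.967%), and 81 and 25 of these stayed under 1 CPM in the higher culture. Both libraries of one culture lay above both of the other for 10599 of all genes tested (54.8%) and for 3458 of the 3471 called. Every fold change below is Inject-Embed against 2D on the log2 scale, with its standard error from the fit and n = 2 libraries a culture, unless another comparison is named. Each list count against 2D is to be read beside the shares over all genes tested, 9.09% higher and 8.86% lower.

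The highest fold changes were ranked among called protein-coding genes of at least 10 CPM in the higher culture whose libraries did not overlap between cultures. They include secreted and surface proteins and interferon-stimulated genes. SERPINE2, a secreted inhibitor of thrombin and plasminogen activators at chr2:223975112-224039319 on the minus strand (GRCh38), was at 5.33 and 5.36 CPM in 2D and at 73.7 and 83.7 CPM in Inject-Embed. Its log2 fold change was 3.88 ± 0.11 (adjusted p = 1.2e-28), a 14.7-fold rise. VCAM1, an adhesion molecule that binds integrins on leukocytes, rose from 11.5 and 11.6 CPM to 85.2 and 77.3 CPM (log2 fold change 2.82 ± 0.10, adjusted p = 8.6e-26). RELN, the secreted glycoprotein reelin, stood at 57.9 and 63.2 CPM in 2D and 262 and 257 CPM in Inject-Embed (2.10 ± 0.06, adjusted p = 1.36e-29). The guidance ligand SLIT2 rose from 5.02 and 6.17 CPM to 23.1 and 22.3 CPM, the G protein regulator RGS2 from 9.54 and 7.12 CPM to 35.02 and 36.4 CPM, and the thioredoxin-binding protein TXNIP from 20.8 and 16.8 CPM to 72.6 and 72.9 CPM. OASL, OLFML3, KCNJ15, NPNT, LSAMP and IFI44L complete the 12 highest under that rule.

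TAGLN and CNN1, actin-binding proteins known from smooth muscle, led the other direction. TAGLN (transgelin, chr11:117199321-117204782 on the plus strand, GRCh38) was at 46.7 and 49.3 CPM in 2D and at 5.12 and 5.46 CPM in Inject-Embed, with a log2 fold change of -3.18 ± 0.16 (adjusted p = 2.83e-20) and a mean 9.08-fold higher in 2D. The actin-binding protein CNN1 fell from 12.1 and 13.7 CPM to 1.23 and 1.76 CPM, and CALD1 (caldesmon) from 30.1 and 26.8 CPM to 7.85 and 7.90 CPM. FGB and FGG, fibrinogen chains that liver cells secrete, fell together: FGB from 167 and 166 CPM to 28.3 and 24.6 CPM (-2.65 ± 0.06, adjusted p = 2.22e-32) and FGG from 32.96 and 31.2 CPM to 8.95 and 8.15 CPM. The membrane-anchored glycoprotein MDGA1 fell from 223 and 229.6 CPM to 47.9 and 51.3 CPM. TINAGL1, ANKRD1, SERINC2, SHOX, MAMDC2 and PADI2 complete the 12 lowest under the same rule.

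**Figure D1:**
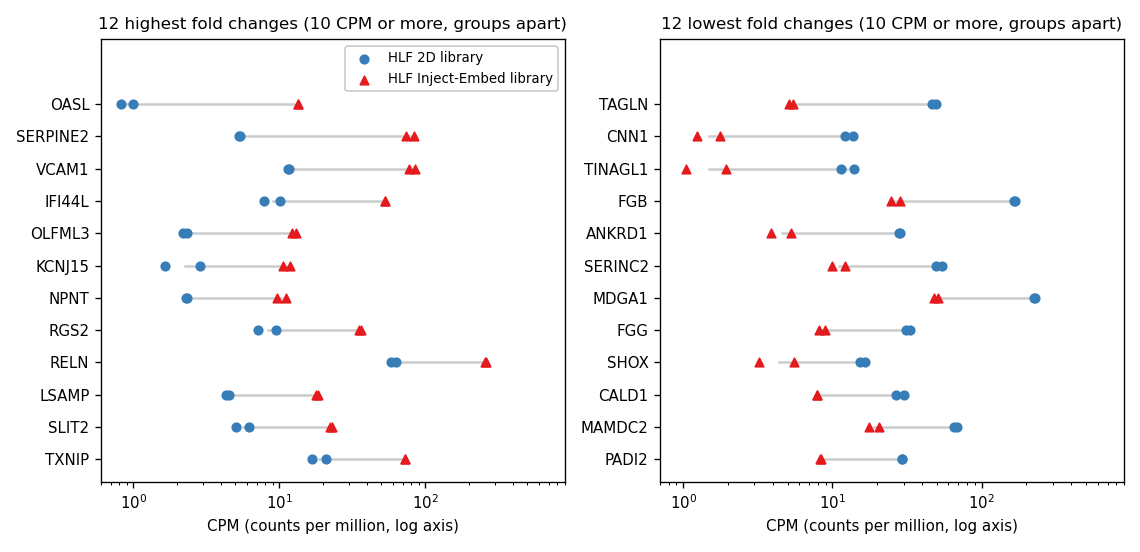
CPM (log axis) of the 12 highest and 12 lowest fold changes among called protein-coding genes of at least 10 CPM whose cultures did not overlap, with 1 point per library (circles HLF 2D, triangles HLF Inject-Embed) and a grey line joining the means. SERPINE2 lies at 5.33 and 5.36 CPM in 2D and at 73.7 and 83.7 CPM in Inject-Embed, while TAGLN lies at 46.7 and 49.3 CPM and 5.12 and 5.46 CPM.

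**Figure D2:**
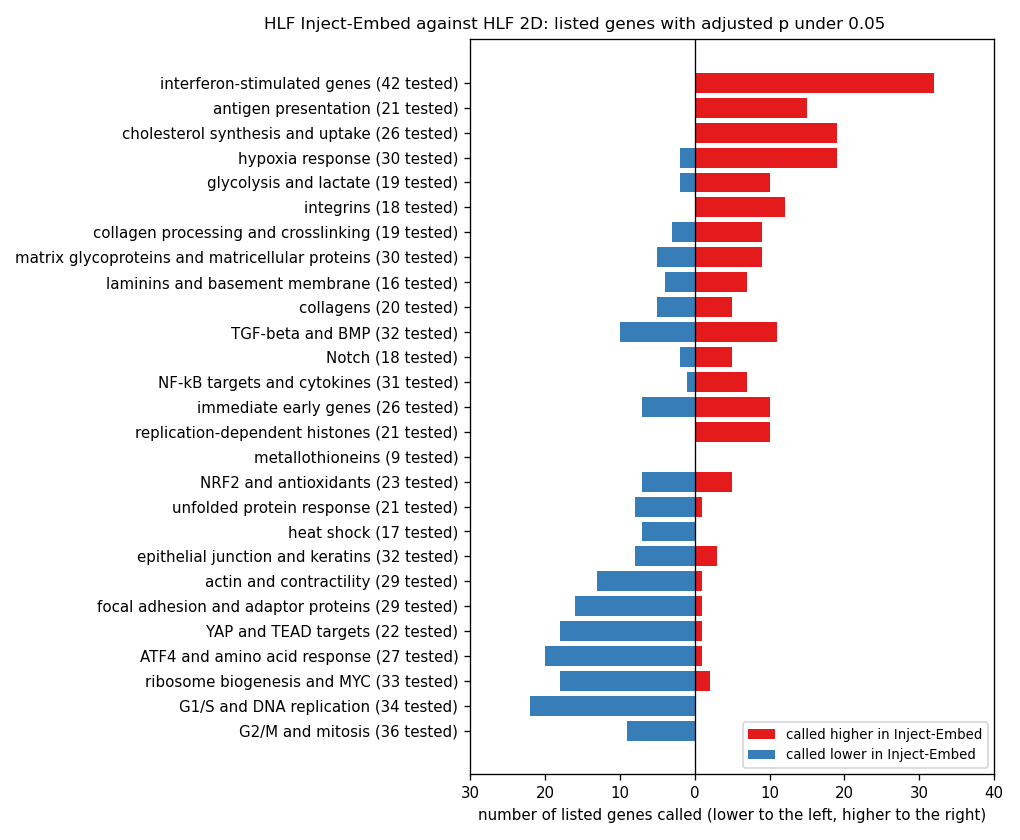
Number of genes of each list called higher (red, to the right) or lower (blue, to the left) in HLF Inject-Embed against HLF 2D at an adjusted p under 0.05, with the number tested in brackets. Interferon-stimulated genes reach 32 called higher of 42 tested, and G1/S genes reach 22 called lower of 34 tested.

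Interferon-stimulated genes formed the list with the most members higher. Of its 42 members, 32 rose (76.2%, against 9.09% of all genes tested), the other 10 were not called, and the median log2 fold change was 0.84 against 0 over all genes; 16 members rose by at least 2-fold. IFI44L, an interferon-induced protein that limits signalling, was at 7.87 and 10.1 CPM in 2D and 52.6 and 53.1 CPM in Inject-Embed (2.55 ± 0.12, adjusted p = 8.53e-22). Its neighbour IFI44 rose from 24.3 and 25.1 CPM to 75.6 and 78.96 CPM, and IFIT1, which binds viral RNA lacking a methylated cap, from 14.4 and 14.6 CPM to 43.3 and 41.1 CPM. OASL rose from 0.991 and 0.819 CPM to 13.5 and 13.4 CPM and OAS2, a synthetase of the RNase L pathway, from 0.248 and 0.252 CPM to 6.87 and 5.58 CPM. Both 2D libraries lay below both Inject-Embed libraries for each of these genes. The cultures were apart in this way, in either direction, for 99.6% of called genes and 54.8% of all genes tested. IFITM1, a membrane protein that blocks viral entry, had 3 counts in the 2D libraries together and 31 in the Inject-Embed libraries, a ratio of CPM of 10.5 with a 95% counting interval of 3.29 to 53.9; reads of the closely similar IFITM genes may be split between them. With DESeq2 29 of the 42 rose, and with limma on log2(FPKM + 0.1) 23 did.

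The promoters of this list were examined for the interferon-stimulated response element, the site that the factor ISGF3 binds. The motif, GAAA and again GAAA with any 2 bases (NN) between, was searched on both strands (TTTC, NN, TTTC on the other) in the 250 bases before each gene's start in RefSeq (GRCh38.p14). A RefSeq promoter matched 33 of the 42 members by symbol, and 20 of them held the motif (60.6%), against 315 of 12838 promoters of genes tested (2.45%). It was in 16 of the 26 promoters of members that rose (61.5%), close to the 60.6% of all members. These shares describe the list and are no measure of its response to the culture. A match is a run of letters and not a measured binding site. The 4 promoters below were chosen after their values were seen. They belong to the members with the smallest adjusted p among those that rose, hold the motif and overlap no annotated exon. Not every chromosome entered this choice. The capitals mark the motif, and overlapping matches run together.
IFI44 (chr1:78649539-78649788, plus strand): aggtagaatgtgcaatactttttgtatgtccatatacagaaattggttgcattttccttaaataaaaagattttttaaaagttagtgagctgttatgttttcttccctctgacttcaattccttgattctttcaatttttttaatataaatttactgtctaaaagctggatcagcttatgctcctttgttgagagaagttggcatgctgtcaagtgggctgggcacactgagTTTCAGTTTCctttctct
IFITM3 (chr11:320861-321110, minus strand): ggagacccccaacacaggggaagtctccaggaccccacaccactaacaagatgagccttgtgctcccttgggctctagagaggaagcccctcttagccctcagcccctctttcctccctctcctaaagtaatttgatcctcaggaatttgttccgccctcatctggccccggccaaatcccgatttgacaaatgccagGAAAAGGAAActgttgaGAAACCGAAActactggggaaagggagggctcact
HERC5 (chr4:88456869-88457118, plus strand): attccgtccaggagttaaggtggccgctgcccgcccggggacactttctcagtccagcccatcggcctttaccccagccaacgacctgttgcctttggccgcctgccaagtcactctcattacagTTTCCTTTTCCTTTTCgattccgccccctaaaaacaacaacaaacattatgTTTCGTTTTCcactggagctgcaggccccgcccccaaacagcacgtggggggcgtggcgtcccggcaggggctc
PARP14 (chr3:122680589-122680838, plus strand): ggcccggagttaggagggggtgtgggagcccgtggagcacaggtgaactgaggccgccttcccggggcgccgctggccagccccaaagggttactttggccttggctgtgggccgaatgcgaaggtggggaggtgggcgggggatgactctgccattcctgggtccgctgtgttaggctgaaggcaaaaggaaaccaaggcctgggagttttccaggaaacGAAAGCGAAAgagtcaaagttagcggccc
IFITM3 rose from 134 and 126 CPM in 2D to 222 and 215 CPM in Inject-Embed, HERC5, a ligase of the ubiquitin-like protein ISG15, from 11.5 and 11.03 CPM to 26.7 and 24.7 CPM, and PARP14, an ADP-ribosyltransferase, from 65.6 and 65.3 CPM to 99.2 and 95.8 CPM. The run of letters closest to the start is in IFI44, 18 bases before it.

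Of 28 genes that detect viral RNA or carry the interferon signal, 5 rose (17.9%, against 9.09% of all genes tested) and 1 fell (3.57%, against 8.86%). RIGI, the sensor of uncapped RNA, rose from 18.2 and 17.1 CPM to 30.5 and 28.8 CPM and TLR3 from 8.30 and 7.69 CPM to 12.97 and 13.6 CPM (0.73 ± 0.16, adjusted p = 0.00063). The kinase JAK1 fell from 431 and 428 CPM to 324 and 314 CPM. The count that rose was 3 without HLF 2D replicate 2 and 10 when libraries were scaled to their totals. Among 21 antigen presentation genes, 15 rose (71.4%) and the other 6 were not called, with a median log2 fold change of 0.32. The peptide-trimming enzyme ERAP2 rose from 110.4 and 107 CPM to 169.6 and 181 CPM and the proteasome activator PSME2 from 107 and 105 CPM to 143 and 147 CPM.

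Of 31 NF-kB targets and cytokines, 7 rose (22.6%, against 9.09% of all genes tested) and 1 fell (3.23%, against 8.86%). The chemokine CCL5 rose from 1.12 and 0.945 CPM to 6.10 and 6.59 CPM (2.61 ± 0.28, adjusted p = 6.07e-10). NFKBIZ, a nuclear cofactor of NF-kB, rose from 19.6 and 20.7 CPM to 47.5 and 48.6 CPM and NFKBIA, its inhibitor, from 34.3 and 34.1 CPM to 56.6 and 55.1 CPM. The member that fell was the cytokine LIF (43.5 and 40.95 CPM to 33.6 and 36.6 CPM), whose call was lost without HLF 2D replicate 1 or Inject-Embed replicate 1. In the complement list 5 of 16 rose (31.2%, against 9.09% of all genes tested) and the other 11 were not called. C3, the central component, rose from 10.5 and 10.9 CPM to 14.98 and 16.6 CPM (0.57 ± 0.09, adjusted p = 5.3e-06).

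Cholesterol synthesis and uptake rose across the pathway by small steps. Of 26 genes, 19 rose (73.1%) and the other 7 were not called; the median log2 fold change was 0.36, and no member that rose reached 2-fold. HMGCS1, which makes the HMG-CoA from which the pathway starts, was at 69.6 and 74.7 CPM in 2D and 134 and 129.8 CPM in Inject-Embed (0.87 ± 0.06, adjusted p = 1.02e-16). The squalene-forming enzyme FDFT1 rose from 155 and 163 CPM to 231 and 239 CPM, the squalene epoxidase SQLE from 95.6 and 94.3 CPM to 137 and 144 CPM and the sterol demethylase MSMO1 from 71.7 and 73.96 CPM to 125 and 128 CPM. In all 4 genes both Inject-Embed libraries were above both 2D libraries. Such separation, in either direction, held for 99.6% of called genes and 54.8% of all genes tested. Fatty acid genes did not share the direction: 4 of 25 rose (16%, against 9.09% of all genes tested) and 4 fell (16%, against 8.86%). FASN, the fatty acid synthase, fell from 1656 and 1748 CPM to 1166 and 1188 CPM, and SREBF1, the regulator of lipid synthesis, from 356 and 363 CPM to 246 and 249.6 CPM. ACSS2, which makes acetyl-CoA from acetate, rose from 51.8 and 48.3 CPM to 74.4 and 78.3 CPM, and PLIN2, which coats lipid droplets, from 42.6 and 44.3 CPM to 65.4 and 66.1 CPM. A motif of the sterol regulatory element (TCACNCCAC, either strand) was in 1 of 19 cholesterol gene promoters found in RefSeq and in 0.826% of promoters of genes tested; it was in 0 of the 15 promoters of members that rose.

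Hypoxia response genes rose as well, without uniformity. Of 30 genes, 19 rose (63.3%) and 2 fell, with a median of 0.48. PFKFB4, which sets the level of a glycolytic activator, was at 15.1 and 13.2 CPM in 2D and 40.9 and 35.2 CPM in Inject-Embed (1.42 ± 0.09, adjusted p = 3.51e-16). PDK1, which restrains pyruvate entry into the mitochondrion, rose from 10.4 and 12.9 CPM to 29.8 and 26.2 CPM, the mitophagy receptor BNIP3 from 144 and 139.6 CPM to 237 and 229 CPM and the collagen prolyl hydroxylase P4HA1 from 53.5 and 52.7 CPM to 95.5 and 99.7 CPM. VEGFA, the vascular growth factor, rose from 51.5 and 53.05 CPM to 72.5 and 76.1 CPM. CA9, the carbonic anhydrase often used as a hypoxia marker, had 1 count in the 2D libraries together and 37 in the Inject-Embed libraries, a ratio of CPM of 37.8 with a 95% counting interval of 6.37 to 1532. The 2 members that fell were STC2 (177 and 186 CPM to 135 and 134 CPM), which also belongs to the ATF4 list, and the vasoactive peptide ADM (59.9 and 58.6 CPM to 41.7 and 42.1 CPM). In the glycolysis list 10 of 19 rose and 2 fell (1 without HLF 2D replicate 1 or Inject-Embed replicate 2). LDHA, lactate dehydrogenase, rose from 1568 and 1554 CPM to 1964 and 1973 CPM and PGK1 from 470.0 and 451 CPM to 577 and 587 CPM, whereas the phosphofructokinase PFKP fell from 452 and 468 CPM to 345 and 349.9 CPM.

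Integrins, a family that includes receptors for many matrix proteins, rose in 12 of 18 tested genes (66.7%) and the other 6 were not called. Which of them bind the gel's proteins was not tested. Without Inject-Embed replicate 2 the count that rose was 7. ITGB8, which activates latent TGF-beta, rose from 1.05 and 1.51 CPM to 7.26 and 7.71 CPM (2.54 ± 0.25, adjusted p = 5.93e-11). The collagen receptor subunit ITGA2 rose from 9.66 and 11.5 CPM to 17.8 and 22.5 CPM, ITGB3 from 12.3 and 14.9 CPM to 25.2 and 26.8 CPM and ITGAV from 297 and 302 CPM to 399.7 and 402 CPM. CD44, a hyaluronan receptor outside the integrin list, rose from 374 and 379 CPM to 599 and 613 CPM.

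Matrix genes went in both directions. Among 30 matrix glycoproteins 9 rose (30%, against 9.09% of all genes tested) and 5 fell (16.7%, against 8.86%). The proteoglycan VCAN rose from 8.18 and 7.18 CPM to 22.4 and 21.01 CPM and SPP1 (osteopontin) from 22.98 and 21.5 CPM to 53.8 and 54.6 CPM, whereas TGFBI, a TGF-beta-induced matrix protein, fell from 69.8 and 63.9 CPM to 36.3 and 38.6 CPM (-0.84 ± 0.08, adjusted p = 3.91e-11). FN1 (fibronectin) stood at 51.5 and 53.2 CPM and 53.96 and 53.8 CPM and was not called. Of 20 collagens 5 rose (25%) and 5 fell (25%). COL6A2 rose from 198 and 203 CPM to 280.3 and 294 CPM and COL27A1 from 8.42 and 9.51 CPM to 24.4 and 23.2 CPM. COL11A1, a fibril-nucleating collagen, fell from 672 and 669.8 CPM to 394 and 391 CPM, the basement membrane collagen COL4A1 from 348 and 353 CPM to 288 and 288 CPM and COL1A1 from 90.5 and 91.7 CPM to 61.6 and 62.9 CPM. Among enzymes and chaperones of collagen 9 of 19 rose and 3 fell, and without Inject-Embed replicate 2 none of these 3 was called lower (1 without HLF 2D replicate 2). The collagen chaperone SERPINH1 rose from 170.4 and 174 CPM to 272 and 299.5 CPM. In the laminin and basement membrane list 7 of 16 rose and 4 fell, with 4 that rose without HLF 2D replicate 1 or without Inject-Embed replicate 1. LAMB1 rose from 558 and 568 CPM to 704 and 696 CPM, and the perlecan gene HSPG2 fell from 487 and 539 CPM to 352 and 346 CPM.

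Genes of the plasminogen system, which governs proteolysis around the cell, went both ways, with 4 of 12 higher (33.3%) and 2 lower (16.7%). Over all genes tested the shares were 9.09% and 8.86%. Without Inject-Embed replicate 2 the counts were 2 and 1, and 1 was lower without either HLF 2D replicate. SERPINE2 rose as given above. PLAU, urokinase, rose from 294 and 278 CPM to 329.5 and 335 CPM. Among matrix proteases, MMP1, the interstitial collagenase, rose from 49.6 and 51.9 CPM to 106 and 103 CPM and MMP15 fell from 29.98 and 33.2 CPM to 17.6 and 15.8 CPM. The protease list as a whole had 7 of 23 higher (30.4%) and 8 lower (34.8%). The count higher was 4 without Inject-Embed replicate 2, and the count lower was 4 without that library and 5 without any other of the 4.

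The targets of YAP and TEAD fell. Of 22 genes 18 were lower (81.8%, against 8.86% of all genes tested) and 1 was higher, with a median of -0.41. ANKRD1, a nuclear protein widely used as a YAP readout, was at 28.6 and 27.9 CPM in 2D and 5.25 and 3.89 CPM in Inject-Embed (-2.63 ± 0.18, adjusted p = 4.93e-16). CCN1, a matricellular protein, fell from 199 and 200.5 CPM to 106 and 114 CPM, IGFBP3, a carrier of insulin-like growth factors, from 229 and 236 CPM to 68.4 and 70.2 CPM, and the ligand TGFB2 from 22.7 and 26.5 CPM to 8.04 and 8.15 CPM. CCN2, another standard target, stood at 24.7 and 23.6 CPM in 2D and 22.5 and 20.1 CPM in Inject-Embed and was not called. The member that rose was NT5E, the ectonucleotidase CD73, from 43.3 and 41.1 CPM to 113 and 107 CPM (1.38 ± 0.07, adjusted p = 2.83e-20).

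Contractile and adhesion genes were lower. In the actin list 13 of 29 were lower (44.8%, against 8.86% of all genes tested) and 1 was higher. In the focal adhesion list 16 of 29 were lower (55.2%) and 1 was higher. MYH9, the heavy chain of non-muscle myosin, was at 3845 and 4047 CPM in 2D and 2512 and 2539.7 CPM in Inject-Embed. ACTN1, an actin crosslinker, fell from 538 and 546 CPM to 405 and 408 CPM and CAV1, the coat protein of caveolae, from 571 and 554 CPM to 367 and 358 CPM. The focal adhesion adaptor PDLIM5 was the member that rose (67.5 and 69.5 CPM to 78.4 and 86.05 CPM), and it was not called without Inject-Embed replicate 2. CNN3 was the actin gene that rose (194 and 198 CPM to 227 and 222 CPM).

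The TGF-beta and BMP list split, with 11 of 32 higher (34.4%) and 10 lower (31.2%). ID1, ID2 and ID3, inhibitors of helix-loop-helix factors that BMP signals induce, rose together: ID1 from 84.4 and 82.97 CPM to 224 and 229.9 CPM (1.44 ± 0.06, adjusted p = 1.73e-23), ID2 from 131 and 129 CPM to 226 and 227 CPM and ID3 from 67.3 and 63.6 CPM to 155 and 162 CPM. TGFB2, given above, was among the members that fell. In the Notch list 5 of 18 rose and 2 fell; the fall of both was lost without HLF 2D replicate 2 or Inject-Embed replicate 2, and 1 of them was called without either other library. Of the Notch list 27.8% rose and 11.1% fell, against 9.09% and 8.86% of all genes tested. The ligand JAG1 rose from 34.4 and 37.9 CPM to 103 and 103 CPM (1.51 ± 0.07, adjusted p = 3.31e-22), the glycosyltransferase LFNG from 121 and 117 CPM to 254 and 244 CPM and the target HES1 from 0.434 and 0.693 CPM to 3.24 and 2.88 CPM. SOX9, a progenitor and cholangiocyte factor, rose from 15.1 and 16.4 CPM to 42.7 and 41.1 CPM.

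Immediate early genes were divided too, with 10 of 26 higher and 7 lower (4 lower without HLF 2D replicate 1). FOS rose from 1.12 and 1.76 CPM to 5.51 and 6.96 CPM, JUNB from 20.3 and 18.6 CPM to 38.9 and 44.3 CPM, and the phosphatase DUSP6, a feedback inhibitor of ERK, from 3.78 and 4.98 CPM to 11.5 and 10.5 CPM. MYC fell from 119 and 112 CPM to 86.3 and 83.5 CPM (-0.44 ± 0.06, adjusted p = 2.18e-07) and ATF3 from 46.8 and 45.05 CPM to 27.6 and 27.2 CPM.

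The amino acid response, governed by ATF4, was lower. Of 27 genes 20 fell (74.1%) and 1 rose, with a median of -0.49. SLC7A5, the carrier of large neutral amino acids, was at 199.9 and 210.2 CPM in 2D and 76.8 and 71.8 CPM in Inject-Embed (-1.46 ± 0.06, adjusted p = 3.78e-24). SLC7A11, the cystine importer, fell from 36.8 and 39.8 CPM to 18.3 and 18.2 CPM, the arginine carrier SLC7A1 from 210.5 and 206 CPM to 128 and 124 CPM and the serine synthesis enzyme PSAT1 from 133 and 132 CPM to 87.4 and 86.3 CPM. DDIT4, an inhibitor of mTORC1 that hypoxia also induces, was the member that rose (17.8 and 19.4 CPM to 36.2 and 37.3 CPM). The motif TGATGNAA of the C/EBP-ATF response element was in 2 of 22 promoters of this list, in 1 of the 19 of members that were called, and in 1.62% of promoters of genes tested.

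Of 21 genes of the unfolded protein response 8 fell and 1 rose, and the rise was not called without HLF 2D replicate 2 or Inject-Embed replicate 1. The chaperone HSPA5 fell from 963 and 912 CPM to 777 and 778 CPM. Of 17 heat shock genes 7 fell and the other 10 were not called, with HSPD1 at 1074 and 1091 CPM in 2D and 872 and 889.6 CPM in Inject-Embed. The NRF2 list had 7 of 23 lower and 5 higher; the count higher was 1 without HLF 2D replicate 1 and 3 without Inject-Embed replicate 2. TXNRD1, thioredoxin reductase, fell from 456 and 457 CPM to 269 and 279 CPM and HMOX1, heme oxygenase, from 20.8 and 22.8 CPM to 10.9 and 12.5 CPM. AKR1C3, an aldo-keto reductase, had 1 count in the 2D libraries together and 41 in the Inject-Embed libraries, a ratio of CPM of 41.9 with a 95% counting interval of 7.1 to 1693.

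Of 34 genes of G1/S and DNA replication 22 fell (64.7%) and the other 12 were not called, with a median of -0.22 and none at 2-fold. The count was 14 without HLF 2D replicate 1 and 13 without Inject-Embed replicate 1. CDC6, which loads the replicative helicase, fell from 112 and 107 CPM to 80.3 and 72.6 CPM and the transcription factor E2F1 from 127 and 128 CPM to 88.7 and 92.8 CPM. Of 36 mitotic genes 9 fell (25%, against 8.86% of all genes tested) and 27 were not called; 4 fell with any 1 of the 4 HLF libraries left out, 2 with limma on log2(FPKM + 1), and with scaling to library totals 4 fell and 2 rose. MKI67, the Ki-67 antigen of cycling cells, stood at 935 and 1000.2 CPM in 2D and 867 and 827 CPM in Inject-Embed (-0.19 ± 0.04, adjusted p = 0.000729), and its call was lost without HLF 2D replicate 2 or Inject-Embed replicate 2. In the list of ribosome biogenesis and MYC targets 18 of 33 fell and 2 rose, with 10 or 11 that fell without HLF 2D replicate 1, Inject-Embed replicate 1 or Inject-Embed replicate 2, and 1 that rose without any 1 of the 4 libraries. NPM1, a nucleolar histone chaperone, fell from 1725 and 1689 CPM to 1364 and 1312 CPM. CDKN1A, the inhibitor p21, stood at 12.8 and 14.1 CPM and 17.4 and 16.1 CPM and was not called.

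Replication-dependent histone genes rose in 10 of 21 tested and the other 11 were not called; 6 rose without HLF 2D replicate 1. H2BC21 rose from 8.42 and 8.51 CPM to 30.7 and 26.7 CPM and H2AC6 from 36.1 and 36.5 CPM to 57.98 and 59.1 CPM. Most transcripts of this class carry no poly-A tail while the libraries were made by poly-A capture, and reads can be shared among their near-identical copies.

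Of 27 secreted hepatocyte proteins, 15 of which had at most 3 counts in 1 of the cultures, 5 rose (18.5%, against 9.09% of all genes tested) and 3 fell (11.1%, against 8.86%), the 3 being the fibrinogen chains FGA, FGB and FGG. AFP, the fetal albumin-like protein, was at 0.867 and 0.252 CPM in 2D and 4.86 and 5.46 CPM in Inject-Embed (3.18 ± 0.23, adjusted p = 8.01e-15), against 25782 and 24305 CPM in Huh7 2D. AMBP rose from 2.23 and 1.39 CPM to 6.29 and 5.27 CPM. ALB (albumin) had at most 0.189 CPM and HNF4A, the master regulator of hepatocyte genes, at most 0.063 CPM in the 4 HLF libraries, and neither was called. Among 32 epithelial junction and keratin genes 8 fell (25%, against 8.86%) and 3 rose (9.38%, against 9.09%). KRT8 and KRT18, the keratin pair of simple epithelia, fell from 3713 and 3612 CPM to 2357 and 2365 CPM and from 1492 and 1416 CPM to 928 and 911 CPM, and CDH1 fell to 0.973 and 1.38 CPM. VIM was at 752 and 754 CPM and CDH2 at 263 and 265 CPM in Inject-Embed, and neither was called. The mesenchymal list as a whole was not flat. Of its 19 members tested 6 rose (31.6%, against 9.09% of all genes tested) and 2 fell (10.5%, against 8.86%). The 22 listed genes summed to 3219 CPM in HLF 2D and to between 4103 and 4106 CPM in HLF Inject-Embed.

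Of 12 metallothioneins listed 9 entered the test, but 5 of these had 0 counts in all 4 HLF libraries. Of the other 4, none was called by edgeR, 0 at an unadjusted p under 0.05 and 0 with DESeq2 or limma, while edgeR on the compared libraries alone called 1 lower. MT2A, which binds zinc and copper, was at 246 and 229.7 CPM in 2D and 214 and 226 CPM in Inject-Embed, and MT1E at 59.8 and 51.3 CPM and 56.4 and 58.6 CPM. In the iron list 2 of 16 rose and 4 fell; the count that rose was 1 without HLF 2D replicate 1 and none without HLF 2D replicate 2 or Inject-Embed replicate 2. As shares, 12.5% of the iron list rose and 25% fell, against 9.09% and 8.86% of all genes tested. TFRC, the transferrin receptor, fell from 403 and 400.0 CPM to 289.9 and 289.5 CPM and the ferritin chain FTL from 1115 and 1056 CPM to 854 and 874 CPM. Of 13 mitochondrially encoded transcripts 6 rose, beside the higher share of mitochondrial ribosomal RNA given above, with MT-ND1 at 1153 and 1143 CPM in 2D and 1586 and 1516 CPM in Inject-Embed.

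The response of HLF was then tested against that of Huh7 to the same culture, as the difference of the 2 log2 fold changes. It was called for 4796 of 19342 genes (24.8%), with 2531 (13.1%) more positive in HLF and 2265 (11.7%) more negative. The seeding of the lines differed. Counts of members that rose or fell in Huh7, here and in the next paragraph, stand without a share over all genes in Huh7. The shares given for HLF do not apply to them. In the cholesterol list the difference was positive for 21 of 26 genes: 19 rose in HLF and 21 fell in Huh7. HMGCS1, which rose in HLF, was at 1122 and 1049.9 CPM in Huh7 2D and 566 and 579 CPM in Huh7 Inject-Embed, and the difference was 1.79 ± 0.07 (adjusted p = 1.55e-23). In the hypoxia list the difference was positive for 20 of 30 genes and negative for 1: 19 rose in HLF, and 23 fell in Huh7. PFKFB4 fell in Huh7 from 93.5 and 95.1 CPM to 36.9 and 38.8 CPM (difference 2.74 ± 0.12, adjusted p = 4.28e-22).

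In the list of ribosome biogenesis and MYC targets the difference was negative for 24 of 33 genes, of which MYC was at 91.1 and 100.1 CPM in Huh7 2D and 190.3 and 183 CPM in Huh7 Inject-Embed (difference -1.41 ± 0.08, adjusted p = 2.02e-17). In the ATF4 list the difference was negative for 14 of 27 genes and positive for 3. More members of this list fell than rose in Huh7 too, with 13 lower and 6 higher. Its member SLC7A5 rose in Huh7 from 239.6 and 254 CPM to 327 and 318 CPM (difference -1.85 ± 0.08, adjusted p = 4.54e-23). KRT8 rose in Huh7 from 639.8 and 691 CPM to 999 and 976 CPM, and HMOX1 from 18.9 and 20.6 CPM to 37.1 and 36.4 CPM, while both fell in HLF. Of the 32 epithelial junction and keratin genes 6 rose and 9 fell in Huh7. The difference for this list was negative for 7 genes and positive for 4. MT2A, not called in HLF, was at 0.666 and 1.01 CPM in Huh7 2D and 252 and 229 CPM in Huh7 Inject-Embed (difference -8.26 ± 0.15, adjusted p = 7.02e-37). RELN fell in Huh7 from 495 and 476 CPM to 244 and 257 CPM (difference 3.05 ± 0.08, adjusted p = 4.35e-31). ID1 rose in both lines (difference 0.49 ± 0.08, adjusted p = 8.05e-06).

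**Figure D3:**
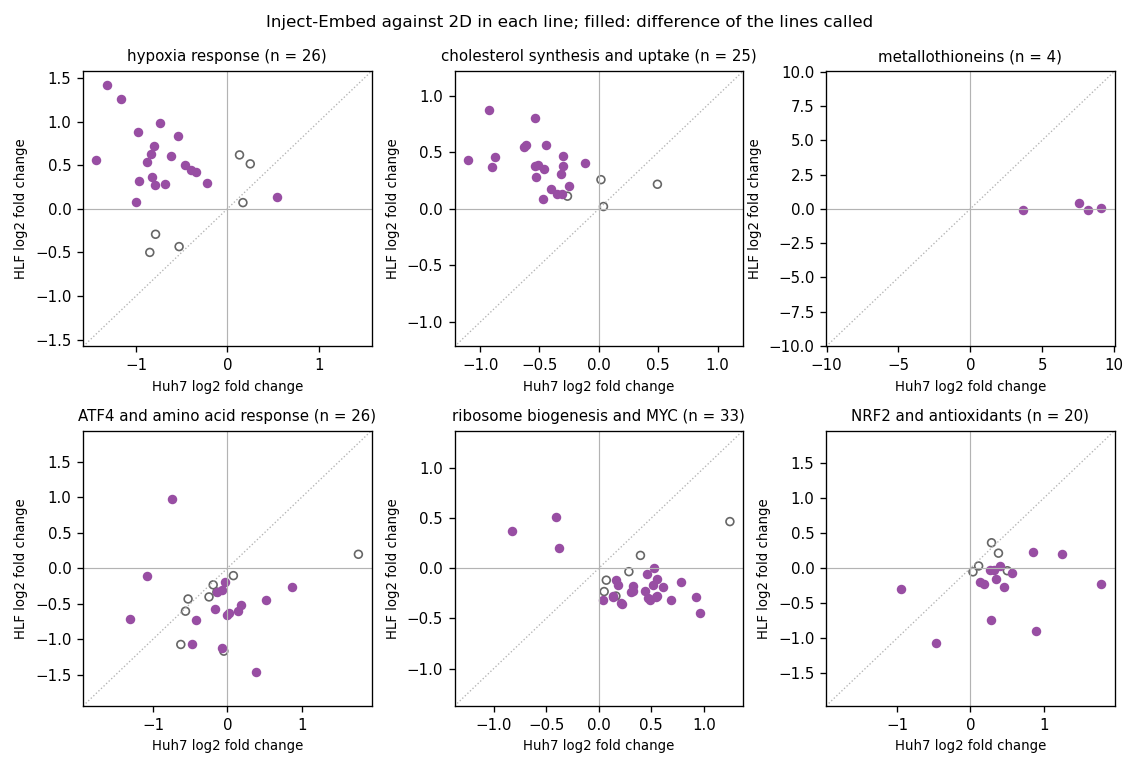
Log2 fold change of Inject-Embed against 2D in Huh7 (horizontal) and HLF (vertical), 1 point per gene of 6 lists that reached a mean of 1 CPM in each line; filled points had a called difference between the lines, and the dotted line marks equal change. Most hypoxia and cholesterol genes lie above 0 for HLF and below 0 for Huh7, and the 4 metallothioneins plotted lie near 0 for HLF and far above 0 for Huh7.

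HLF Inject-Embed against HLF Mix-Embed, the 2 ways of embedding, called 1600 of 19342 genes (8.27%), 689 higher (3.56%) and 911 lower (4.71%) in Inject-Embed, and 30 (0.155%) and 144 (0.744%) of them reached 2-fold. The Mix-Embed wells received more cells. This comparison and that with 2D share the Inject-Embed libraries, so they are not independent. Levels in all HLF cultures are not given for every gene named below. Each list count against Mix-Embed is to be read beside the shares over all genes tested, 3.56% higher and 4.71% lower. How those list counts depend on the processing was not tested. Without any 1 of the 4 libraries the count of calls was between 766 and 1046, the highest without Mix-Embed replicate 1 and the lowest without Inject-Embed replicate 2, with 811 without Inject-Embed replicate 1 and 795 without Mix-Embed replicate 2.

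Interferon-stimulated genes were lower in Inject-Embed than in Mix-Embed in 38 of 42 cases, and the other 4 were not called. IFI44L was at 178 and 183 CPM in Mix-Embed, above its 52.6 and 53.1 CPM in Inject-Embed and its 7.87 and 10.1 CPM in 2D (Inject-Embed against Mix-Embed -1.77 ± 0.09, adjusted p = 5.74e-20). OAS2 was at 40.99 and 36.6 CPM in Mix-Embed (-2.64 ± 0.16, adjusted p = 6.57e-16), BST2, the virion-tethering protein tetherin, at 25.8 and 25.5 CPM, XAF1 at 17.3 and 15.5 CPM, TRIM22 at 9.91 and 10.9 CPM and IFITM1 at 12.1 and 10.9 CPM. Of the antigen presentation genes, 14 of 21 were lower in Inject-Embed. TXNIP, at 72.6 and 72.9 CPM in Inject-Embed, reached 246 and 222 CPM in Mix-Embed (-1.68 ± 0.07, adjusted p = 2.78e-21) and FOS reached 19.8 and 21.6 CPM.

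**Figure D4:**
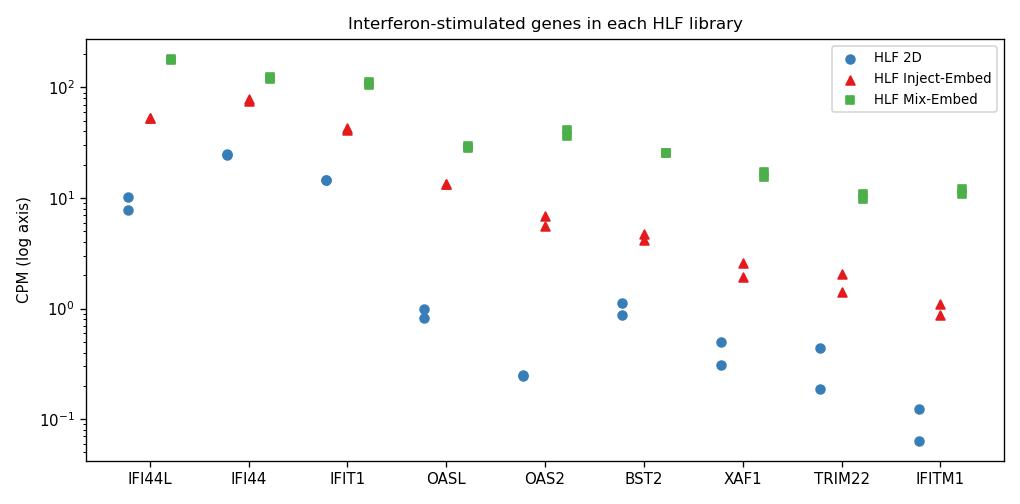
Level of 9 interferon-stimulated genes in CPM on a log axis, with 1 point per library for HLF 2D (circles), Inject-Embed (triangles) and Mix-Embed (squares). For each gene both 2D libraries lie lowest, both Inject-Embed libraries between, and both Mix-Embed libraries highest. The choice of genes fixed part of this order. IFI44L, IFI44, IFIT1 and OASL were named for their rise against 2D. OAS2, BST2, XAF1, TRIM22 and IFITM1 were named for lying below Mix-Embed in libraries that did not overlap.

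Cholesterol genes were higher in Inject-Embed than in Mix-Embed in 18 of 26 cases. HMGCS1 was at 82.9 and 92.7 CPM in Mix-Embed against its 134 and 129.8 CPM in Inject-Embed (0.58 ± 0.05, adjusted p = 6.13e-11), and FDFT1 was at 155 and 167 CPM in Mix-Embed. Mitotic genes were higher in Inject-Embed in 26 of 36 cases and genes of G1/S in 11 of 34, against 3.56% of all genes tested. The changes were small, with median log2 fold changes of 0.22 and 0.15 against Mix-Embed. The genes with the highest change among those named included NPAS2, a clock transcription factor (10.96 and 10.2 CPM in Inject-Embed, 6.49 and 5.34 CPM in Mix-Embed), SHISA2 (218 and 214 CPM and 116 and 124 CPM) and S100A4 (46.4 and 52.9 CPM and 30.1 and 29.6 CPM). U2AF1L5 and SSX2 also ranked there and SSX2B at the other end, but each has a near-identical copy with which reads can be shared: U2AF1L5 was at 7.85 and 45.2 CPM in the 2 Inject-Embed libraries, and SSX2 and SSX2B changed in opposite directions (1.97 and -2.51). Some of the strongest changes against 2D were not called between the embedded cultures: SERPINE2 was at 79.8 and 81.5 CPM in Mix-Embed (-0.04 ± 0.08, adjusted p = 0.888), TAGLN at 4.51 and 4.51 CPM (0.23 ± 0.20, adjusted p = 0.603) and ANKRD1 at 6.15 and 6.12 CPM (-0.43 ± 0.20, adjusted p = 0.229).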

How the data were processed

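RNA was captured by poly-A selection and sequenced in pairs, per the labels' protocols. The submitters' processing notes name FastQC, Trimmomatic, STAR 2.7.9a, featureCounts and GRCh38; how strand was set in counting, and which annotation release was used, is not given in the sources used here. Counts (whole numbers) for 58735 genes and FPKM with gene length were deposited by the authors. The deposited FPKM followed from those counts, lengths and library totals (largest relative difference 1.5e-08 over 167453 values of at least 20 counts). Names come from the files' IDs, 99.1% of which matched the symbol table.

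Counts were analysed with edgeR 4.0.16 in R 4.3.3: TMM scaling, filterByExpr with a minimum count of 10, the quasi-likelihood test on 12 libraries with 6 group means, and Benjamini-Hochberg adjustment at 0.05 over 19342 genes. CPM values use TMM-scaled library sizes. Standard errors are the fold change divided by the root of the F statistic. Libraries of 12325877 to 16041906 counts put 3 counts at 0.178 to 0.255 CPM; intervals cover counting error only. Alternatives were RLE scaling, library totals only, no filter, DESeq2 1.42.0, limma 3.58.1 on log2(FPKM + 1) or log2(FPKM + 0.1), a replicate block, fewer groups in the fit, and leaving out each library.

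Members and lists were chosen with earlier results of these data known. Genes named were the 12 highest and 12 lowest protein-coding changes with at least 10 CPM and separate groups, 6 in each direction for the other comparisons, the members of each list with the smallest adjusted p (up to 4 in its main direction and 2 in the other) and a fixed set, of which the text gives a selection. Histone, MT1, IFITM, APOBEC3, SSX2 and U2AF1 genes have near-identical copies, so their counts are uncertain, as are those of overlapping antisense genes. Some genes are not reported here.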

Additional observations from a re-analysis of the deposited data

Results flagged for a closer look

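The responses of HLF and Huh7 to Inject-Embed differed for 4796 genes by edgeR's test of the difference of the 2 log2 fold changes. Among genes of at least 10 CPM in 1 of the 4 groups, the most positive differences were 6.16 for PTPRO, 6.07 for SNAP25, 5.74 for HPN, 5.55 for TMEM47, 5.22 for APOBEC3G and 5.04 for LYZ. The most negative were -9.06 for MT1E, -8.26 for MT2A, -7.09 for MT1X, -6.06 for LZTS1, -5.30 for ALB and -4.76 for A4GALT. Several rest on groups at or near 0 and are no measure of size there. HPN had 0 counts in HLF 2D and 7 in HLF Inject-Embed, SNAP25 0 and 9, LYZ 0 and 6, LZTS1 11 and 0, and ALB 3 and 0. For ratios, the group at 0 was set to 3 counts in all and the counts of the other group were taken as exact. HLF Inject-Embed was then 2.38-fold higher for HPN, 3.06-fold higher for SNAP25 and 2.04-fold higher for LYZ, and 3.59-fold lower for LZTS1. Counting error of these few counts is left out, so the ratios are no lower bounds. In HLF, LYZ was called against 2D by edgeR and not by DESeq2. MT1E was at 59.8 and 51.3 CPM in HLF 2D and 56.4 and 58.6 CPM in HLF Inject-Embed, against 0 and 0.471 CPM and 132 and 137 CPM in Huh7.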

How the results depend on the processing

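Calls of HLF Inject-Embed against 2D fell to 2266 with limma on log2(FPKM + 1) and no filter, and to between 2247 and 2294 with 1 library left out, of which 1158 to 1222 were higher and 1038 to 1135 lower. Genes called lower were 1055 with limma on log2(FPKM + 1), 910 with log2(FPKM + 0.1) and 884 with log2(FPKM + 1) and no filter. Against Mix-Embed, 1056 genes were called with DESeq2, 982, 670 and 755 with the same 3 limma fits, and between 766 and 1046 with 1 library left out. The cause was not tested, beyond the fewer samples of the left-out fits. The line difference of A4GALT turned to 0.0304 on log2(FPKM + 1) with or without the filter. Most genes named against 2D were chosen because they were called in that comparison. The share of them called, given next, was largely fixed by that choice and is no test of it. Of 269 genes named or eligible, 261 were called, 202 in every fit with 1 library left out and 184 in every fit, and none reversed direction in the comparison with 2D.

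Replicate numbers did not pair the samples: deviations of same-numbered libraries correlated between -0.148 and 0.116 over 10316 genes, above 0.1 in 1 of 15 group pairs, and 0.0141 for HLF 2D with HLF Inject-Embed. With the replicate number as a block, 3465 genes were called against 2D, 4782 for the line difference and 1595 against Mix-Embed.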
